A study of Homo sapiens with 18 samples.

Results

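The sites described here are the AML1-ETO binding intervals that were called in control and in miR-130a knockdown cells and that sit at the boundaries of genes. They were chosen by the authors' list of peaks shared by both conditions, by a width under 3000 bp and by a peak centre within 1 kb of the start or end of an annotated gene of any kind. This gave 5006 peaks of the 8731 shared peaks (57.3%). Another 2406 shared peaks under 3000 bp lay inside genes away from a boundary and 921 lay outside genes, and 398 shared peaks were 3000 bp or wider. Because a shared peak had to be called by both antibodies in both conditions, the presence of a call at these sites is how they were selected and is no result. The widths of the calls come from the same lists, so their changes are given as a description, and the tests below only set these peaks against shared peaks in other places of the genome.

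AML1-ETO is the fusion protein made by the t(8;21) translocation. It keeps the runt domain of RUNX1 (AML1), which binds DNA with its partner CBFB, and gains most of RUNX1T1 (ETO), which recruits corepressors such as NCoR and histone deacetylases. Genes are read from their start, and the promoter just before it is where many transcription factors and the transcription machinery assemble. CUT&RUN maps such sites: an antibody guides a nuclease to the protein in opened cells, and the short DNA fragments cut loose next to it are read.

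The study profiled Kasumi-1, an acute myeloid leukaemia cell line with t(8;21), carrying a Flag-tagged AML1-ETO. The 18 libraries formed 6 groups of 3: control or miR-130a knockdown cells, each with an antibody against ETO, an antibody against Flag, or mouse IgG. Cells of both conditions were transduced and sorted for GFP 3 days later, and all libraries come from this 1 cell line. The design asks whether the sites held by the fusion change when the microRNA is knocked down.

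Per antibody and condition there was 1 list of peak positions, with 14264 control anti-ETO, 22594 knockdown anti-ETO, 23162 control anti-Flag and 25961 knockdown anti-Flag calls. The lists carry no height, score or library, so the depth behind a call is unknown and the 3 libraries of a group cannot be compared with one another. An IgG list was not used here. Peaks are not replicates of a condition, and all intervals below are 95% Wilson intervals that cover the counting of peaks only.

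The promoters of 5 genes show what lies under these peaks, each as the 250 bases before the gene start, 5′ to 3′ on the strand of the gene (RefSeq, GRCh38.p14). They were picked after the values were known. NEIL3 is a DNA repair gene with both forms of the RUNX letters, NOTCH2 a Notch receptor, KDM1A and CPTP stand among the largest rises in call width with anti-ETO and anti-Flag, and CEBPA is the myeloid regulator without the letters. Capitals mark the core letters read by RUNX proteins, TGTGGT or TGCGGT on either strand (ACCACA or ACCGCA on the printed one). NEIL3 is at chr4:177309624-177309873 (plus strand), NOTCH2 at chr1:120069663-120069912 (minus), KDM1A at chr1:23019218-23019467 (plus), CPTP at chr1:1324552-1324801 (plus) and CEBPA at chr19:33302535-33302784 (minus).
NEIL3: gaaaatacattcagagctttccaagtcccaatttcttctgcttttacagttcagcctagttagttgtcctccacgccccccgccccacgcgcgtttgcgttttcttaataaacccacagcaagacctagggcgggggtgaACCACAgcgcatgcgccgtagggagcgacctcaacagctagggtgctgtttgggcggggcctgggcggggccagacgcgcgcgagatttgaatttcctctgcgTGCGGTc
NOTCH2: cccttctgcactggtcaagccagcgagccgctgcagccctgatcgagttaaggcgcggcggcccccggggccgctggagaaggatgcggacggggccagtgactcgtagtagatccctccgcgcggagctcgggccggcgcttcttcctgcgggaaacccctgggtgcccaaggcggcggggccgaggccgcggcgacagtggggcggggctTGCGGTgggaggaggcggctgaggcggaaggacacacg
KDM1A: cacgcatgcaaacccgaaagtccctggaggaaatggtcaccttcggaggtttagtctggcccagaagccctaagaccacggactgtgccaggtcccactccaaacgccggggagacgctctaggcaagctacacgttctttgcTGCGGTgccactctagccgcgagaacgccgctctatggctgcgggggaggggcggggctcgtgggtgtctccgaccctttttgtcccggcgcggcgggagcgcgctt
CPTP: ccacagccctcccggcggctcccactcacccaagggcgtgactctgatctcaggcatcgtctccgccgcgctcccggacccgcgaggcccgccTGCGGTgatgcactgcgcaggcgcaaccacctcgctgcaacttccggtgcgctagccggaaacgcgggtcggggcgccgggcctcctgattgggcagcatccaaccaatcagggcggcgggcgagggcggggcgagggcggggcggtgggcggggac
CEBPA: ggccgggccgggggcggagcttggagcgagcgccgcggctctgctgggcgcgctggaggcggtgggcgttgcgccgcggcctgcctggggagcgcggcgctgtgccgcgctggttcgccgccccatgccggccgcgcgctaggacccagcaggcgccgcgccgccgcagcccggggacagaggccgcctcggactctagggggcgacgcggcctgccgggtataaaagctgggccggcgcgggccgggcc
All 250 bases of each lie inside the peak at that gene. The letters stand 2 to 7 and 105 to 110 bases before the start of NEIL3, 33 to 38 before NOTCH2, 102 to 107 before KDM1A and 152 to 157 before CPTP. Such a match is a description of the sequence, not a measured binding site.

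The peaks gathered at gene starts. Among the 3948 peaks whose nearest gene has a known strand, 3555 were nearest to a start (90.0%, 89.1 to 90.9) and 393 to an end (9.95%). The nearest gene of the other 1058 peaks has no strand in the tables used. Of 4818 stranded genes with a peak, 4531 had one at the start (94.0%), and 267 had different peaks at the start and at the end (5.54%). The rule accepted starts and ends alike and did not fix this split.

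Around the start the centres leaned into the gene. The median centre lay 104.5 bp downstream of the start, with quartiles 161 bp upstream and 337 bp downstream. Of the 3555 peaks nearest a start, 2190 had the centre inside the gene (61.6%), 1364 upstream of it (38.4%), and 2520 covered the start itself (70.9%, 69.4 to 72.4). At gene ends the centres fell on both sides, with 201 of 393 past the end (51.1%). The median distance from the nearest boundary was 280.5 bp, and 3763 of the 5006 peaks lay within 500 bp (75.2%).

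**Figure D1:**
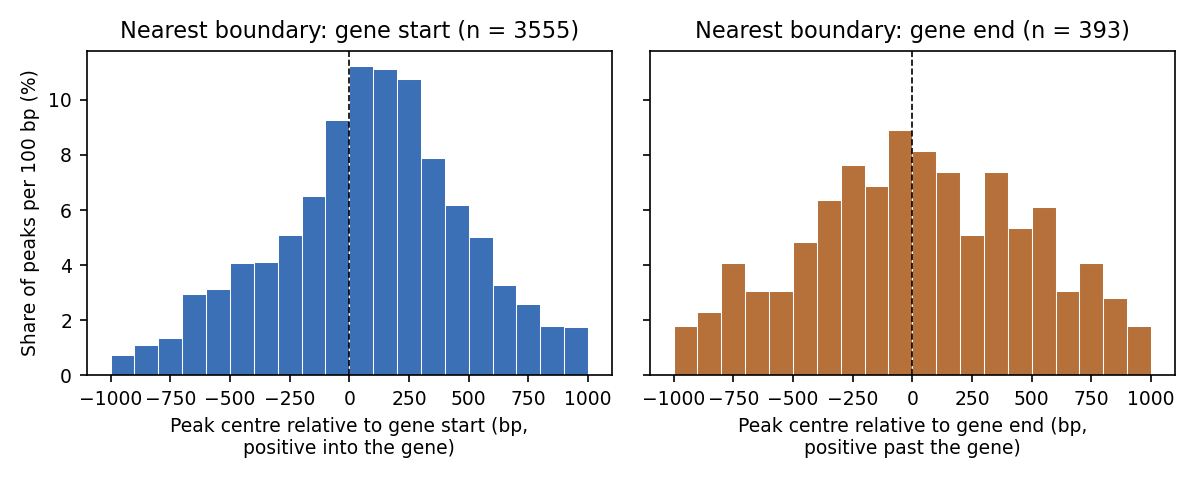
Share of peaks per 100 bp (vertical axis, %) by the position of the peak centre relative to the nearest gene start (left, 3555 peaks, positive into the gene) or gene end (right, 393 peaks, positive past the gene). At starts the tallest bar is the first 100 bp of the gene (11.2%), while no bar at gene ends passes 8.91%.

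Most of these sites belong to protein-coding genes. The nearest gene was protein-coding for 3859 peaks (77.1%), a long non-coding RNA for 882 (17.6%), a microRNA for 62, a tRNA for 41, a small nuclear RNA for 26 and a small nucleolar RNA for 3. A peak lay within 1 kb of boundaries of 1 gene in 3154 cases and of 2 or more genes in 1852 (37.0%), so many peaks count for several genes. At 1022 peaks (20.4%) starts of genes on both strands were within 1 kb.

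Seen from the genes, 6140 of 59716 annotated genes had a peak at a boundary (10.3%). The share was 22.4% of 20050 protein-coding genes, 18.8% of 154 small nuclear RNA genes and 14.2% of 465 tRNA genes. It was 6.83% of 18303 long non-coding RNA genes, 5.28% of 1913 microRNA genes and 0.834% of 1199 small nucleolar RNA genes. Short genes have both ends within reach of 1 peak and often lie in clusters, so these shares are not comparable as densities. Of the 6140 genes, 5239 had 1 such peak, 855 had 2 and 45 had 3, among them MALAT1, an abundant nuclear long non-coding RNA, KMT2D, a histone H3 methyltransferase, and HDAC10, a deacetylase. MZF1-AS1, a long non-coding RNA on chromosome 19, had 4. MALAT1, KMT2D and HDAC10 were picked from the 45 after the values were seen.

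Chromosome 19 held 520 of the 5006 peaks (10.4%, 9.57 to 11.3), beside 4.52% of the boundaries of all genes and 7.24% of those of protein-coding genes. Its share was lower than among shared peaks inside genes (13.5%, adjusted p = 0.00023) and outside genes (13.0%, adjusted p = 0.028), by two-sided Fisher's exact tests with Benjamini-Hochberg adjustment over 16 comparisons, the family used throughout.

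The next measure is how much of each site was called. For every peak the widths of all calls that overlap it were summed, separately for each of the 4 lists. The median summed width was 685.5 bp for control anti-ETO and 932 bp for knockdown anti-ETO. It was 783.5 bp for control anti-Flag and 598 bp for knockdown anti-Flag. In control the anti-Flag calls were the wider ones, and in knockdown the anti-ETO calls were. Knockdown anti-ETO was the widest of the 4 at 2736 peaks (54.7%), and knockdown anti-Flag was the narrowest at 2657 (53.1%).

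Calls at these peaks were wider than the other calls of the same list. Taken one by one, control anti-ETO calls had a median of 609 bp at these peaks and 416 bp elsewhere, and knockdown anti-ETO calls 840 and 406 bp. Control anti-Flag calls had 601 and 381 bp, and knockdown anti-Flag calls 434 and 345 bp. A site called in all 4 lists is here set beside sites that may be called in 1, so the selection and the place cannot be told apart in these medians.

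**Figure D2:**
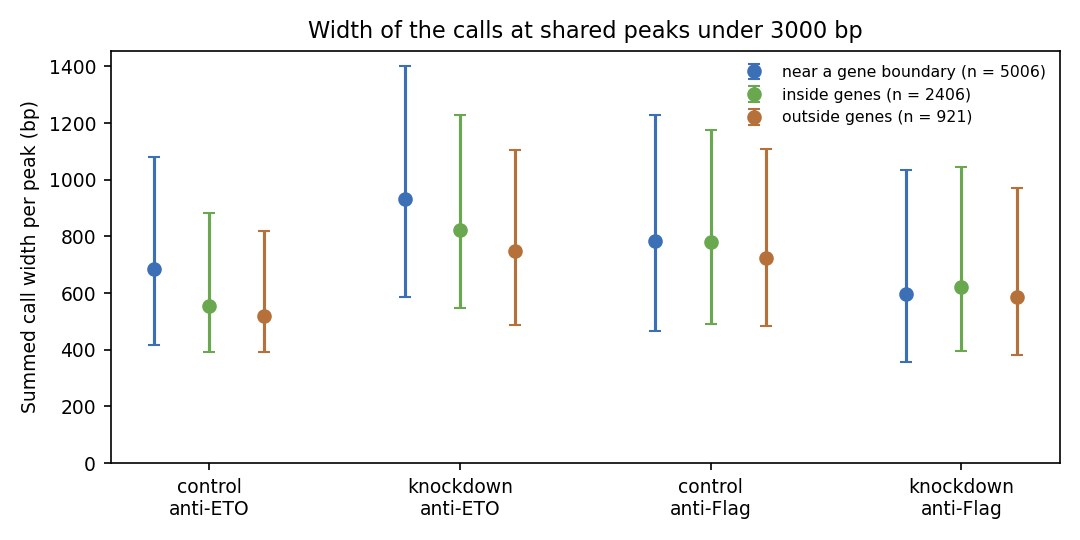
Summed call width per shared peak under 3000 bp (vertical axis, bp) in the 4 lists, for peaks near a gene boundary, inside genes and outside genes. Points are medians and bars the quartiles over peaks. In all 3 places anti-ETO is wider in knockdown than in control (932 against 685.5 bp near boundaries) and anti-Flag narrower (598 against 783.5 bp).

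Peak by peak, the anti-ETO call was wider in knockdown at 4015 of 5006 sites (80.2%, 79.1 to 81.3) and narrower at 939. The anti-Flag call was narrower in knockdown at 3584 sites (71.6%, 70.3 to 72.8) and wider at 1400 (28.0%). Over all 8333 shared peaks under 3000 bp, the background shares were 80.7% wider with anti-ETO and 70.2% narrower with anti-Flag, so gene boundaries follow the whole shared list here. The median knockdown-to-control ratio of widths was 1.23 for anti-ETO (log2 0.30) and 0.866 for anti-Flag (log2 −0.21). The width at least doubled at 713 sites with anti-ETO (14.2%) and fell to 50% or less at 25. With anti-Flag it at least doubled at 131 sites and fell to 50% or less at 778 (15.5%).

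The antibodies moved in opposite directions at most of the sites, as each had its own majority direction. At 2731 sites the anti-ETO call was wider and the anti-Flag call narrower in knockdown (54.6%, 53.2 to 55.9), while the opposite was found at 130 (2.60%). Both calls were wider at 1266 sites (25.3%) and both narrower at 806 (16.1%). Anti-ETO was wider at 1266 of the 1400 sites with a wider anti-Flag call, and at 2731 of the 3584 with a narrower one. A wider anti-ETO call thus went more often with a wider anti-Flag call, and the changes did not oppose each other site by site. Both antibodies target the tagged fusion, and anti-ETO can also bind the untagged AML1-ETO of the cell line. The knockdown lists are longer than the control lists for both antibodies, and the part of depth or peak calling in these widths was not tested.

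**Figure D3:**
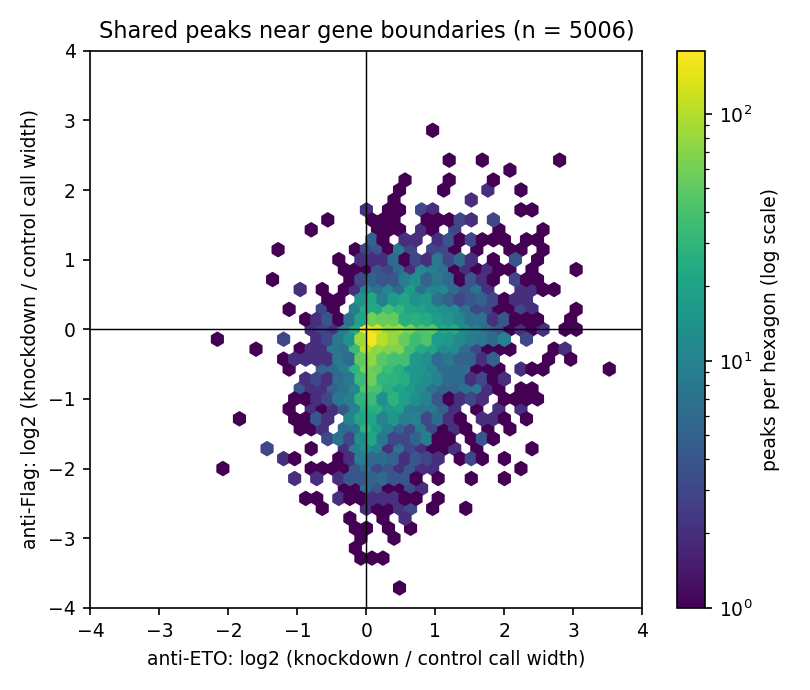
Each of the 5006 peaks by its log2 ratio of knockdown to control call width with anti-ETO (horizontal axis) and anti-Flag (vertical axis). Colour gives the number of peaks per hexagon on a log scale. The lower right part, wider with anti-ETO and narrower with anti-Flag, holds 2731 peaks and the upper left 130.

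These shares differed little from those of shared peaks elsewhere. Anti-ETO was wider in knockdown at 82.5% of peaks inside genes, more than near boundaries (Fisher's exact test, adjusted p = 0.028), and at 79.0% of peaks outside genes, where the difference did not pass (adjusted p = 0.42). Anti-Flag was wider in knockdown at 32.2% of peaks inside genes, a difference of −4.24 percentage points for boundaries (Fisher's exact test, adjusted p = 0.0003), and at 30.6% outside genes (adjusted p = 0.11). The opposite pattern of the antibodies, 54.6% near boundaries, was found at 52.5% inside and 51.6% outside genes, and neither difference passed (Fisher's exact test, adjusted p = 0.11 for both).

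The order of the antibodies within a condition set boundary peaks apart more clearly, at gene starts though not at gene ends. In control, the anti-Flag call was wider than the anti-ETO call at 3180 of 5006 boundary peaks (63.5%, 62.2 to 64.8), against 77.7% inside genes and 79.8% outside. The differences were −14.2 and −16.3 percentage points (Fisher's exact test, adjusted p = 2.2e-34 and 1.9e-22). In knockdown it was wider at 702 boundary peaks (14.02%), against 25.5% inside and 27.9% outside genes, differences of −11.5 and −13.9 points (Fisher's exact test, adjusted p = 2.8e-31 and 2.1e-22). Thus in both conditions anti-ETO calls were the wider ones at boundary peaks more often than elsewhere, but this was not seen at gene ends. Anti-Flag was wider than anti-ETO at 61.5% of start peaks in control and 12.2% in knockdown. At the 393 end peaks it was wider at 76.3% (71.9 to 80.3) and 26.5% (22.3 to 31.0), close to the shares inside genes. In the control medians, anti-Flag was 783.5 bp at boundaries, 780.5 bp inside and 725 bp outside genes, while anti-ETO was 685.5, 553 and 519 bp. This comparison was added after the widths had been seen.

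Among shared peaks under 3000 bp, anti-Flag calls were also more often broken up at gene boundaries. Several control anti-Flag calls fell on 1 peak at 1033 boundary sites (20.6%), against 13.3% inside and 10.2% outside genes (Fisher's exact test, adjusted p = 1.2e-14 and 1.4e-14). In knockdown the numbers were 1332 sites (26.6%), 19.9% and 16.5% (Fisher's exact test, adjusted p = 3.4e-10 and 3.9e-11). The peaks themselves had median widths of 1042 bp at boundaries, 990 bp inside and 914 bp outside genes, and the part of peak width in this was not tested. Shared peaks of 3000 bp or more, 255 of 398 of them near a boundary, had several anti-Flag calls at 63.3% in control and 76.1% in knockdown. Anti-ETO calls were split at 8.55% of the boundary sites in control, beside 7.32% inside and 5.43% outside genes. In knockdown the shares were 8.23%, 7.90% and 6.62%.

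How the calls sit around the start was read at the 2179 start peaks with exactly 1 call in each list. The median edges of control anti-ETO calls lay 262 bp upstream and 360 bp downstream of the start. Those of knockdown anti-ETO calls lay 300 bp upstream and 443 bp downstream. For control anti-Flag calls they lay 268 bp upstream and 395 bp downstream, and for knockdown anti-Flag calls 189 bp upstream and 336 bp downstream. Each edge was taken on its own, so the span between these medians is not a median call. The median widths were 529 bp in control and 703 bp in knockdown with anti-ETO, and 594 and 441 bp with anti-Flag. The start itself was covered by 49.9% of control and 55.2% of knockdown anti-ETO calls, and by 47.6% of control and 35.2% of knockdown anti-Flag calls.

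Both edges took part in the change. With anti-ETO the knockdown call reached further upstream at 60.3% and further downstream at 65.0% of these sites, by medians of 10 and 19 bp over all sites. With anti-Flag it reached further upstream at 24.1% and further downstream at 27.5%, with medians of −15 and −16 bp. In control, the anti-ETO call lay inside the anti-Flag call at 30.7% of the sites and the reverse held at 28.7%. In knockdown, the anti-ETO call lay inside the anti-Flag call at 3.12% and the anti-Flag call inside the anti-ETO call at 73.4%.

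The gene groups come next, from 23 lists of genes by role. All of them were chosen with earlier results of these data known. The count of genes with a boundary peak in each list is to be read beside the 22.4% of all protein-coding genes, and the widths beside the median log2 ratios of all boundary peaks, 0.30 for anti-ETO and −0.21 for anti-Flag.

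**Figure D4:**
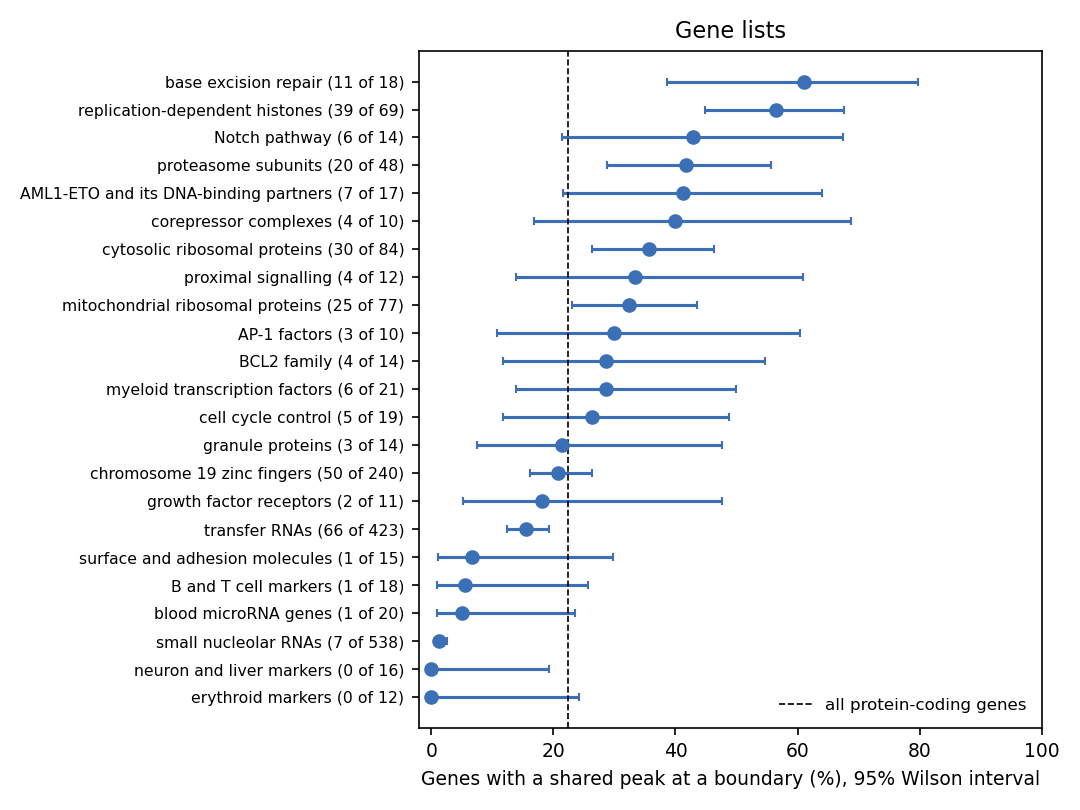
Share of genes with a shared peak at a boundary (horizontal axis, %) in each of the 23 lists, with the counts beside the names. Points are shares, bars 95% Wilson intervals and the dashed line all protein-coding genes (22.4%). Base excision repair (61.1%) and histone genes (56.5%) stand highest, and erythroid and neuron or liver markers are at 0.

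Of the AML1-ETO partner genes, 7 of 17 had boundary peaks, 10 peaks in all: RUNX1, CBFB, CBFA2T2, TCF3, LDB1, EP300 and PRMT1. Within 500 bp of a boundary, 2 of the 17 genes had one. RUNX1, the normal counterpart of the fusion, had a peak at its start (chr21:35047673-35049870) with widths of 2084 bp control and 2086 bp knockdown for anti-ETO, and 1991 and 1837 bp for anti-Flag. Its calls were wider than the median of each list and differed little from one another. EP300, the acetyltransferase that acetylates AML1-ETO, had 1502 bp in control and 1817 bp in knockdown with anti-ETO, and 795 and 649 bp with anti-Flag. Here anti-ETO was the wider in both conditions. CBFB, the RUNX partner subunit, had a peak of 702 bp and one of 1405 bp near the same boundary, and CBFA2T2, a relative of ETO, had 2 peaks at its start. Over the 10 peaks, 7 were wider with anti-ETO in knockdown (median log2 0.17) and 4 with anti-Flag (−0.10).

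Among the corepressor genes 4 of 10 had peaks, with the deacetylases HDAC2 and HDAC3 among them. Within 500 bp of a boundary, 1 of the 10 genes had one. The HDAC2 peak lay with its centre 3 bp from the start, and its calls went from 873 to 754 bp with anti-ETO and from 652 to 384 bp with anti-Flag. The HDAC3 peak lay near the gene end, where the anti-ETO call went from 410 to 1168 bp and the anti-Flag call from 560 to 1386 bp. HDAC3 thus widened with both antibodies, unlike most sites.

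Of the myeloid transcription factors, 6 of 21 had boundary peaks (28.6%), and all 6 were wider with anti-ETO in knockdown, EGR1 by 1 bp, beside 80.2% of all boundary peaks. CEBPA, which drives granulocyte differentiation, had a peak over its start (chr19:33301897-33303381). Its anti-ETO call went from 1209 to 1481 bp and its anti-Flag call from 982 to 874 bp. SPI1 (PU.1), a master factor of myeloid and B cells, widened with both antibodies, from 388 to 637 bp with anti-ETO and from 421 to 637 bp with anti-Flag. MYB, a progenitor factor, went from 491 to 524 bp with anti-ETO and from 955 to 383 bp with anti-Flag. EGR1, an immediate early factor of monocytic cells, had 1070 and 1071 bp with anti-ETO and 1034 and 719 bp with anti-Flag.

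Granule proteins had 3 of 14 genes with a peak, and all 3 were wider with anti-ETO and narrower with anti-Flag in knockdown. The share of genes was 21.4%, beside 22.4% of protein-coding genes, and 54.6% of all boundary peaks had this pattern. CTSC, the protease that activates granule serine proteases, went from 627 to 1322 bp with anti-ETO and from 779 to 269 bp with anti-Flag. CTSD, a lysosomal protease, went from 512 to 1569 bp and from 992 to 564 bp. RNASE2, an eosinophil ribonuclease whose short gene has both ends near the peak, went from 970 to 1254 bp and from 1807 to 607 bp. All 3 genes moved more than the median site, with list medians of 1.08 for anti-ETO and −1.53 for anti-Flag on the log2 scale.

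Of the growth factor receptors 2 of 11 had a peak (18.2%, 5.14 to 47.7), and of the surface molecules 1 of 15 (6.67%, 1.19 to 29.8), and both intervals hold the 22.4% of protein-coding genes. KIT, the stem cell factor receptor, had a 617 bp peak centred 778 bp from its start, with 617 bp of anti-ETO call in both conditions and 496 and 354 bp of anti-Flag. EPOR, the erythropoietin receptor, had 418 and 419 bp with anti-ETO and 444 and 376 bp with anti-Flag. ITGAM, the myeloid integrin CD11b, was narrower in knockdown with both antibodies, from 1580 to 1347 bp with anti-ETO and from 1607 to 1113 bp with anti-Flag.

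Proximal signalling genes had 4 of 12 with a peak: CBL, UBASH3B, PLCG2 and VAV1. PLCG2, a phospholipase of antigen and Fc receptor signalling, widened from 634 to 1835 bp with anti-ETO and from 1311 to 1606 bp with anti-Flag. VAV1, an exchange factor of blood cells, held wide calls in all lists, 2088 and 2413 bp with anti-ETO and 2171 and 2356 bp with anti-Flag. UBASH3B, a tyrosine phosphatase, had 658 and 826 bp with anti-ETO and 643 and 589 bp with anti-Flag. All 4 genes were wider with anti-ETO in knockdown, and 2 were wider with anti-Flag, beside 80.2% and 28.0% of all boundary peaks.

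Of the cell cycle genes 5 of 19 had peaks: CCND2, CCND3, CDKN1C, CDKN2D and E2F1. CCND2, cyclin D2, had a peak 961.5 bp from its boundary that was narrower in knockdown, from 1355 to 1023 bp with anti-ETO and from 1066 to 516 bp with anti-Flag. CDKN2D, a CDK4 and CDK6 inhibitor, had 2064 and 2160 bp with anti-ETO and 1988 and 2200 bp with anti-Flag.

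Base excision repair, which removes damaged bases from DNA, had 11 of 18 genes with a boundary peak (61.1%, 38.6 to 79.7), the highest share of the 23 lists, and all 11 peaks lay at gene starts. The list was chosen knowing that OGG1 had been looked at in these data. Of the 11 peaks, 9 were wider with anti-ETO and 4 with anti-Flag in knockdown (medians 0.10 and −0.55). The glycosylases, which cut out the damaged base, were OGG1, MUTYH, NTHL1, MPG, TDG and NEIL3. OGG1, for oxidised guanine, had a peak 24 bp from its start with 1671 and 2333 bp of anti-ETO and 2409 and 2549 bp of anti-Flag. NEIL3, whose promoter is printed above, had 779 and 800 bp of anti-ETO and 885 and 326 bp of anti-Flag.

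The later steps of that pathway were marked as well. APEX1, which cleaves the backbone at the empty site, had 654 and 1001 bp with anti-ETO and 1060 and 557 bp with anti-Flag. PARP1, a break sensor, had 915 and 981 bp with anti-ETO and 1000 and 681 bp with anti-Flag. LIG1, a ligase, had 709 and 689 bp with anti-ETO and 710 and 468 bp with anti-Flag. FEN1, a flap nuclease, and PCNA, the polymerase clamp, also had a peak at the start, with PCNA the narrowest at 361 bp.

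In the Notch pathway, a cell contact signal, 6 of 14 genes had a peak, and all 6 were wider with anti-ETO in knockdown (median log2 0.60), while 1 was wider with anti-Flag (median −0.48). Over all boundary peaks these shares were 80.2% and 28.0%. The ligand JAG1 had 1684 and 1731 bp with anti-ETO and 1844 and 1181 bp with anti-Flag. The receptor NOTCH1 went from 727 to 1397 bp and from 1314 to 769 bp. The receptor NOTCH2 was the 1 that widened with both, from 1273 to 2471 bp and from 1800 to 2084 bp. The target gene HES1, a repressor, went from 1318 to 2005 bp with anti-ETO and from 1696 to 1473 bp with anti-Flag.

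AP-1 factors had 3 of 10 genes with a peak: FOS, FOSL1 and JUND. FOS, an immediate early gene, went from 694 to 1068 bp with anti-ETO and from 908 to 179 bp with anti-Flag. The BCL2 family had 4 of 14: BCL2, BAD, BAX and BID. BCL2, which protects cells from apoptosis, had 2 peaks at its start that both widened with anti-ETO, from 402 to 1076 bp and from 315 to 961 bp. With anti-Flag those peaks went from 1098 to 882 bp and from 941 to 466 bp. BID, which promotes apoptosis, was narrower in knockdown with both antibodies, from 541 to 286 bp and from 484 to 285 bp.

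Marker lists of other lineages had 0 or 1 gene with a peak. No erythroid marker (0 of 12, up to 24.2%) and no neuron or liver marker (0 of 16, up to 19.4%) had a boundary peak, the limits being the upper ends of the Wilson intervals. Of the B and T cell markers 1 of 18 did: CD3E, a T cell receptor chain, had 693 and 466 bp with anti-ETO and 698 and 312 bp with anti-Flag. Of 20 genes of blood microRNAs and their hosts, which include the knocked-down miR-130a, 1 had a peak (5.0%), and it was the host gene MIR223HG. For this mixed list the backgrounds were 5.28% of all microRNA genes and 6.83% of all long non-coding RNA genes. MIR223HG, the host gene of the myeloid miR-223, had 1024 and 801 bp with anti-ETO and 1426 and 890 bp with anti-Flag.

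**Figure D5:**
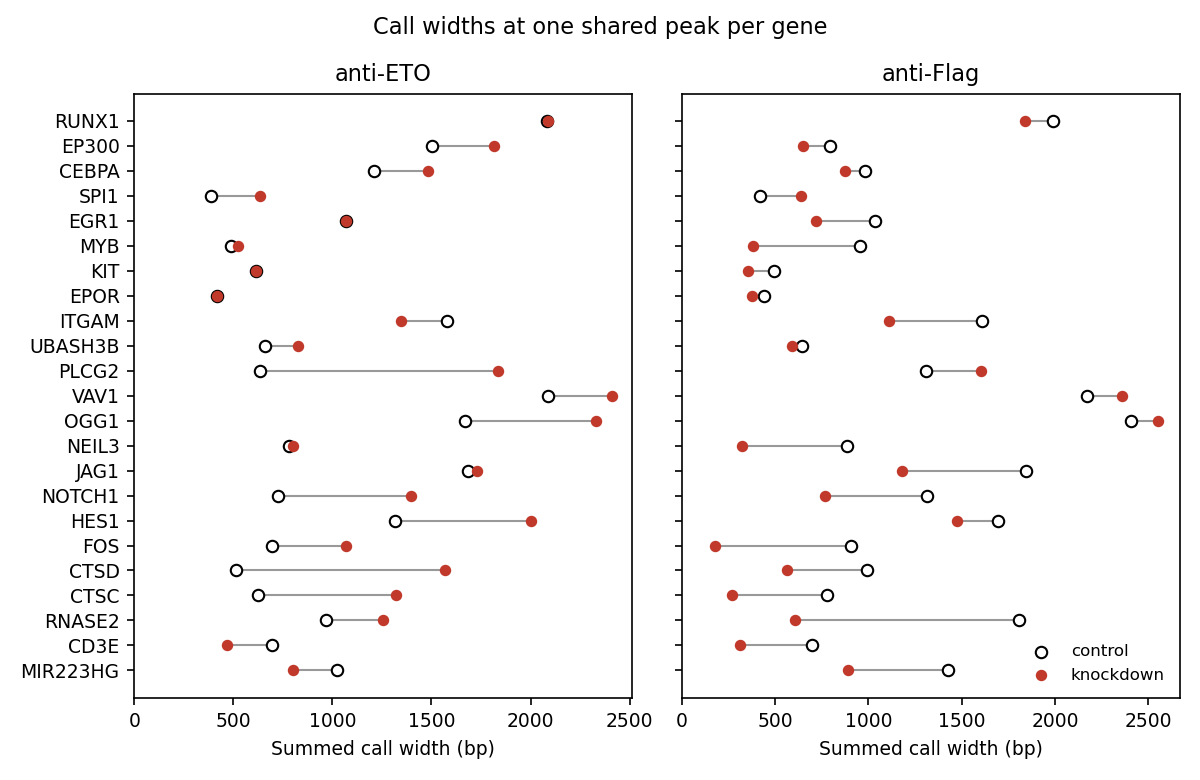
Summed call width (horizontal axis, bp) with anti-ETO (left) and anti-Flag (right) at 1 boundary peak of each of 23 named genes, in control (open circles) and knockdown (red). Most red points lie right of the open ones with anti-ETO (CTSD 512 to 1569 bp) and left of them with anti-Flag (FOS 908 to 179 bp).

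Genes of ribosomes and of the proteasome were also read by list. Peaks stood at 30 of 84 cytosolic ribosomal protein genes (35.7%), 25 of 77 mitochondrial ribosomal protein genes (32.5%) and 20 of 48 proteasome subunit genes (41.7%), beside the 22.4% of all protein-coding genes. Of the 36 cytosolic ribosomal protein peaks 29 were wider with anti-ETO and 10 with anti-Flag in knockdown, as were 21 and 5 of the 25 proteasome peaks. PSME1, an activator of the immunoproteasome, was narrower with both, from 1182 to 542 bp and from 747 to 346 bp. PSME1 was picked after the values were seen, as the lowest anti-ETO ratio of its list.

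Replication-dependent histone genes had peaks at 39 of 69 (56.5%, 44.8 to 67.6). These genes are short and clustered on chromosomes 1 and 6, so 36 peaks served the 39 genes. Of those peaks 25 were wider with anti-ETO and 6 with anti-Flag in knockdown. H4C8, one of the histone H4 genes, had a peak narrower with both, from 725 to 398 bp with anti-ETO and from 976 to 179 bp with anti-Flag. Its other peak hardly changed, from 737 to 729 bp and from 523 to 513 bp. The former peak had the lowest anti-ETO ratio of its list and was picked for that.

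The remaining lists lay near their backgrounds. Zinc finger genes of chromosome 19 had peaks at 50 of 240 (20.8%), beside 22.4% of protein-coding genes. Transfer RNA genes of the list had peaks at 66 of 423 (15.6%), beside 14.2% of all tRNA genes, and 50 of their 62 peaks were wider with anti-ETO in knockdown. Small nucleolar RNA genes had peaks at 7 of 538 (1.30%), beside 0.834% of all such genes.

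The largest changes in width were ranked at protein-coding genes. Most of the ratios ranked below have 1 width of 166 to 212 bp. That is under the lower quartile of the calls of every list (253 to 316 bp). Such ratios thus rest on a very short call in 1 condition, and the part of peak calling in them was not tested. With anti-ETO the highest ratio was at FARSA, a subunit of phenylalanyl-tRNA synthetase, from 204 to 1719 bp (8.43 times), where the anti-Flag call stayed at 1239 and 1272 bp. KDM1A, the histone demethylase LSD1, went from 191 to 1354 bp (7.09 times), with 929 and 786 bp of anti-Flag. SRSF2, a splicing factor, went from 359 to 2920 bp, UNC93B1, which carries Toll-like receptors to endosomes, from 197 to 1567 bp, and ANKRD13D from 197 to 1545 bp. At each of the 5 the control anti-ETO call was narrow while anti-Flag already covered 819 bp or more.

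The lowest anti-ETO ratios were milder. SLC39A8, a zinc and manganese transporter, went from 843 to 191 bp, with 212 and 191 bp of anti-Flag. DISP2 went from 747 to 184 bp, PRPF6, a spliceosome component, from 737 to 212 bp, NXN from 548 to 191 bp and MAPK8, the kinase JNK1, from 543 to 200 bp. At all 5 the anti-Flag call was narrower in knockdown too.

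With anti-Flag the lowest ratio was at ZBTB21, a zinc finger gene, from 2371 to 181 bp, while anti-ETO went from 1505 to 2119 bp. PSMB10, a catalytic subunit of the immunoproteasome, went from 1671 to 166 bp with anti-Flag and from 1579 to 1492 bp with anti-ETO. PTGR3 and C4orf46 fell in width with anti-Flag from 1376 to 168 bp and from 1556 to 192 bp, with 1096 and 1080 bp and 1420 and 1846 bp of anti-ETO. At these genes a wide anti-ETO call remained where the anti-Flag call in knockdown was among the narrowest.

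The highest anti-Flag ratios all came with a wider anti-ETO call. CPTP, a carrier of ceramide 1-phosphate, went from 186 to 1034 bp with anti-Flag (5.56 times) and from 569 to 1239 bp with anti-ETO. C10orf95 went from 275 to 1412 bp, AGPAT2, an enzyme of phospholipid synthesis, from 246 to 1219 bp, NUP188, a nuclear pore protein, from 180 to 821 bp and SMIM45 from 195 to 833 bp. Anti-ETO was wider in knockdown at all 5.

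The widest sums of calls were read last, and the limit of 3000 bp keeps the widths of such peaks close to one another. PPARGC1B, a coactivator of nuclear receptors, had 2886 and 2841 bp with anti-ETO and 2906 and 2260 bp with anti-Flag. HCFC1, a cofactor that binds many promoters, had 2658 and 2766 bp and 2747 and 2681 bp. LOC107986856, a long non-coding RNA on chromosome 7, had 2561 and 2723 bp and 2732 and 2780 bp.

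The limits of the rule cut through similar sites. Just under 3000 bp stood MRTFA (2986 bp), TMED2 (2991 bp) and SRSF2 (2998 bp), and just at or over it ATXN7L3 (3000 bp), IMP3 (3006 bp) and THOP1 (3007 bp). Just within 1 kb stood GRK2 (997 bp from its boundary), GIT1 (998 bp) and TPRG1L (999.5 bp), and just past it MUC8 (1000.5 bp), RABAC1 (1003 bp) and ALDH3B1 (1003.5 bp).

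Some of these genes also carried a peak of only 1 condition near the same boundaries. Of the 6140 genes with a boundary peak, 394 also had a control-unique peak within 1 kb of a boundary (6.42%), 591 a knockdown-unique one (9.63%) and 954 either (15.5%). Among protein-coding genes, control-unique peaks stood at 6.76% of the 4494 genes with a shared boundary peak and at 8.53% of the 15556 without. Knockdown-unique peaks stood at 9.61% of the former and at 4.85% of the latter. The order of the groups thus differed between the unique lists, and no test was made of it. Of the 21 myeloid transcription factor genes, 4 had a control-unique and 0 a knockdown-unique peak at a boundary. Of the 11 growth factor receptor genes, 0 and 2 did. Both are examples from the gene lists, and other lists split either way. Proximal signalling and the BCL2 family each had 3 and 0, cell cycle genes 2 and 4, and surface molecules 1 and 2. These small counts are to be read beside the shares of protein-coding genes above, and no list was tested.

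Promoter sequence was read in windows from 250 bases before to 50 after each start, 35116 windows of 27305 genes in the RefSeq table. Of these, 5408 windows of 4447 genes had a boundary peak centred within 1 kb of the start. A gene can have several windows, and the intervals given for windows below treat them as independent. They were rich in G and C, with a median of 67.7% and 29 CpG pairs, against 58.7% and 14 over all windows and 53.3% and 6 over the 24908 windows without a call near the start in any of the 4 lists. Windows with control-unique and knockdown-unique peaks had 66.3% in both cases.

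The RUNX letters split by their form. TGCGGT, searched on both strands, was in 13.98% of windows with a boundary peak, 7.29% of all windows and 5.13% of those without a call. It was in 11.3% (9.90 to 12.8) of windows with a control-unique peak and 8.12% (6.58 to 9.99) of those with a knockdown-unique one. TGTGGT was in 10.1% of windows with a boundary peak, 13.1% of all windows and 14.4% of those without a call. Either form was in 22.6% of windows with a boundary peak, 19.6% of all, 20.6% of those with a control-unique and 15.2% of those with a knockdown-unique peak. So 77.4% of the promoters at these peaks held neither form within this window.

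Because TGCGGT holds a CpG and TGTGGT does not, the windows were also compared at like CpG number, a step added after the values were seen. TGTGGT was then more frequent with a boundary peak than without a call in every class: 24.3% against 18.5% at 0 to 9 CpG pairs, 14.1% against 13.0% at 10 to 19, 10.2% against 7.69% at 20 to 29, 8.44% against 5.41% at 30 to 39 and 4.22% against 2.15% at 40 or more. The Wilson intervals overlapped at 10 to 19 and at 40 or more, and not in the other classes. Pooled over all classes, the share was lower with a boundary peak. From the fewest to the most CpG pairs, windows with a control-unique peak held TGTGGT at 24.2%, 11.4%, 11.0%, 8.15% and 3.29%. Those with a knockdown-unique peak held it at 17.1%, 13.9%, 6.82%, 2.73% and 2.08%. The control-unique shares were close to those with a boundary peak in most classes. At 10 to 19 pairs the control-unique share was below that without a call. The knockdown-unique shares were below those with a boundary peak in every class. TGCGGT was also higher with a boundary peak than without a call in each class, with 14.9% against 8.72% at 20 to 29 CpG pairs. There windows with a control-unique peak held 13.4% and those with a knockdown-unique peak 10.2%. At 30 to 39 pairs the shares were 15.5% with a boundary peak and 8.35% without a call. They were 10.9% with a control-unique and 7.81% with a knockdown-unique peak.

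Other motifs, also on both strands, were counted without a match for base content. The GC box GGGCGG was in 77.4% of windows with a boundary peak and 45.0% of all, the ETS letters CCGGAAG in 18.2% and 10.3%, and the NRF1 letters GCGCATGC in 6.08% and 3.05%. Windows with a control-unique peak held these at 73.1%, 19.6% and 6.73%, and those with a knockdown-unique peak at 71.9%, 17.7% and 4.41%. Shares above those of all windows are thus not particular to the shared peaks. Between windows with a boundary peak and all windows, the AP-1 letters TGANTCA were in 3.42% and 7.71%, and the GATA letters AGATAA in 3.22% and 10.3%. The C/EBP letters TTGCNNAA were in 5.90% and 10.5%, and the E-box CAGNTG in 41.2% and 49.9%. CCAAT was in 36.2% and 34.6%.

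Width changes were also read at boundary peaks with and without RUNX letters in the promoter. Of 971 peaks with the letters 78.4% (75.7 to 80.8) were wider with anti-ETO in knockdown, and of 2515 without 79.5% (77.9 to 81.1). With anti-Flag 27.4% (24.7 to 30.3) and 25.6% (24.0 to 27.4) were wider. The intervals overlap for both antibodies, and no test was made.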

How the data were processed

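CUT&RUN peak positions of 4 of the 6 library groups were used. Per the submitters' processing notes, fastp 0.19.5, Bowtie2 2.3.5, MACS2 2.2.5, HOMER 4.8 and the builds hg38 and sacCer3 were used; thresholds, the use of IgG and the pooling of replicates are not given in the sources used here. The deposited lists hold chromosome, start and end in bp, and what each holds was read from its name. Depth is unknown, and a deeper library or looser threshold lengthens a list and its calls.

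Gene ends came from RefSeq (GRCh38.p14, 59716 genes). Strand was taken from the promoter and microRNA tables and covers 79.0% of protein-coding genes. A call belonged to a peak when they shared at least 1 bp, and widths of full calls were summed. Shares carry 95% Wilson intervals, and sets of peaks were compared by two-sided Fisher's exact tests (Benjamini-Hochberg over 16) in Python 3.11.15 with scipy 1.17.1, statsmodels 0.14.6 and pandas 2.3.3. On 2000 simulated intervals, 6 of 6 checks gave the planted answer.

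The peaks, lists and tests were chosen with earlier results of these data known. Named genes are list genes with a boundary peak, the 5 highest and 5 lowest width ratios per antibody at protein-coding genes, the 5 widest sums, and the sites next to the limits; some are not described, and of the list genes more than the 30 of the rule are, those past it chosen with values known. Other distances, width limits, overlaps and list lengths were tried.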

Additional observations from a re-analysis of the deposited data

How the results depend on the processing

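No paired analysis was possible because the lists carry no replicate numbers, and for the same reason no replicate could be left out. The number of boundary peaks was 3763 within 500 bp, 5942 within 2500 bp, 4296 with protein-coding genes only, 3669 under 1500 bp and 3555 where the interval overlaps a boundary, beside 5006. The share nearest a start (90.0%) was 91.0% within 500 bp and 92.0% with protein-coding genes only. The share wider with anti-ETO in knockdown (80.2%) was 81.9% with the knockdown list shortened to the control length by width and 77.3% at peaks with 1 call in each list. The share wider with anti-Flag (28.0%) was 29.4% with the shortened list. Shortening by width drops narrow knockdown calls, leaving 4557 and 4619 peaks, which raises both shares by construction, so it is no check on list length. The difference of the anti-ETO share from that of peaks outside genes changed sign, from 1.16 to −0.37 percentage points (Fisher's exact test, p = 0.88) at peaks with 1 call in each list, and the cause was not tested; it passed the threshold in neither case. The differences from peaks inside genes kept their direction and stayed under 0.05 before adjustment in all 5 alternatives run for each antibody. Of these, the length of calls inside the peak and no width limit were chosen after seeing the data. Counts for the gene lists (295 genes) ranged from 214 within 500 bp to 378 within 2500 bp. Single lists moved more than this total. Within 500 bp, AML1-ETO partners fell from 7 to 2 genes, corepressors from 4 to 1 and the BCL2 family from 4 to 1. Growth factor receptors fell from 2 to 1 and cell cycle genes from 5 to 3. Base excision repair went from 11 to 10 and mitochondrial ribosomal proteins from 25 to 23. Which antibody was the wider within a condition differed from peaks inside or outside genes in the same direction in all 5 alternatives. These differences were 9.80 to 18.1 percentage points. Several anti-Flag calls also kept their direction in all 3, by 4.71 to 10.9 (largest p of both measures 2e-06, Fisher's exact test). Shortening the knockdown list leaves the control lists as they are, so for control values it repeats the main result and is no check. These alternatives were chosen after seeing the data. Unique peaks at the same genes were counted under 1 setting.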
